A study of Mus musculus with 32 samples.

Results

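Class II histone deacetylases and the myocyte enhancer factor 2 (MEF2) transcription factors were followed in cultured mouse cortical neurons. The 10 genes were taken by name from the 49671 genes of the deposited count table: the class IIa deacetylases Hdac4, Hdac5, Hdac7, and Hdac9, the class IIb deacetylases Hdac6 and Hdac10, and the factors Mef2a, Mef2b, Mef2c, and Mef2d. Hdac9 was chosen by its CPM at 6 h, where it had been singled out as lower, and the set around it was chosen by gene family, so that the levels of Hdac9 at 6 h, and every comparison in which they enter, are given here as a description without a test. Primary cortical neurons of C57BL/6 mice, labelled WT, were left untreated or exposed to a synthetic oligoribonucleotide at one common concentration, which was Mut.oligo, a mutated let-7b sequence used as a control, miR-124-5p, or the miRNA miR-92a-1-5p. The exposure lasted 6 h or 5 d, and each of the 8 groups held 4 libraries, 32 in all. The comparisons ask how extracellular miRNAs alter gene expression of neurons. The cultures were grown from whole dissociated cortex, so that each library is the sum over the cell types in a dish.

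Class IIa deacetylases have little enzymatic activity of their own and act as signal-dependent corepressors. In the nucleus they bind MEF2 factors and hold MEF2 target genes silent, and after phosphorylation by calcium- and salt-inducible kinases they are bound by 14-3-3 proteins and retained in the cytoplasm. The class IIb enzymes work differently: HDAC6 deacetylates tubulin and other cytoplasmic proteins, and HDAC10 deacetylates polyamines. In neurons, MEF2 factors link electrical activity to survival, dendrite growth, and the number of excitatory synapses.

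Of the 3 oligoribonucleotides, the mature sequence of miR-92a-1-5p is held by the RefSeq annotation of GRCm38.p6 (chr14:115044437-115044459, plus strand). It is shown because a miRNA in the cytoplasm would pair through its seed, bases 2 to 8, printed in capitals.
miR-92a-1-5p: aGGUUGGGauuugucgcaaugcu
The 7 letters complementary to this seed, CCCAACC, occurred in the 3′ UTR of 0 of the 10 genes, whose 3′ UTRs were 349 to 4721 bases long, and in 8.996% of 20898 mouse genes. This is a description of the letters in these windows, and it holds nothing about other sites or about the other 2 oligoribonucleotides.

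The 32 libraries held 24514090 to 73626029 counted reads. Levels are given as CPM, the counts scaled to the library size with TMM, with scaling factors of 0.944 to 1.07. A gene was tested if it had at least 5 counts in at least 3 libraries of a fit, and it was counted as changed at an adjusted p under 0.05 together with a log2 fold change above 0.5 or below -0.5. Adjusted p-values are those of the quasi-likelihood test in edgeR, with the adjustment of Benjamini and Hochberg over all genes tested. Markers fixed for the labelled cells were present: 9 neuronal markers summed to 4941 to 5760 CPM in the 16 libraries of 6 h and to 4188 to 6331 CPM in the 16 of 5 d. The labels also assign each library to an experiment batch. The 4 untreated libraries of a time point came from 4 different batches, and 6 h and 5 d had no batch in common, so that time and batch cannot be told apart in any comparison of 5 d with 6 h.

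Of the 10 genes, 9 passed the filter on low counts. Mef2b, a family member best known from lymphocytes, had 1 count in each of 2 libraries (miR-92a-1-5p at 6 h, replicate 1, and miR-124-5p at 5 d, replicate 1) and 0 in the other 30. It was therefore not tested. Its locus (chr8:70139711-70167488 in GRCm38) shares 62 exonic bases with Borcs8 on the same strand.

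The 9 expressed genes were compared with each other per length, as CPM per kilobase of exon, in untreated neurons (mean ± SD, n = 4). At 6 h, Mef2c, the main MEF2 factor of cortical excitatory neurons, led with 44.8 ± 3.92 CPM per kilobase, before Mef2d with 25.9 ± 1.05 and Hdac5 with 20.7 ± 0.82. Hdac6 followed with 13.9 ± 0.73 CPM per kilobase. The ranges of the 4 libraries overlapped between Hdac9 (9.15 ± 1.67) and Mef2a (8.32 ± 0.39), and again between the lowest genes, Hdac7 (4.28 ± 0.35) and Hdac4 (4.27 ± 0.097). Hdac10 lay between these pairs with 5.30 ± 0.32 CPM per kilobase.

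At 5 d, Mef2c and Mef2d again headed the order with 52.8 ± 18.6 and 26.5 ± 2.80 CPM per kilobase. Hdac5 had come down to 13.2 ± 0.24 CPM per kilobase, the level of Hdac6 (13.2 ± 0.73), and Mef2a had moved up to 12.1 ± 0.41, its libraries overlapping with those of Hdac6. Hdac9 (4.92 ± 0.79), Hdac4 (3.81 ± 0.20), Hdac10 (3.16 ± 0.17), and Hdac7 (2.47 ± 0.38) formed the lower end. The 4 class IIa genes together made up 38.4 ± 1.74 CPM per kilobase at 6 h and 24.4 ± 0.95 at 5 d, whereas the 3 expressed MEF2 genes made up 79.0 ± 4.66 and 91.4 ± 21.6. Hdac5 held 54.0% of the class IIa sum at 6 h and 54.1% at 5 d, and Hdac4 11.1% and 15.6%.

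**Figure D1:**
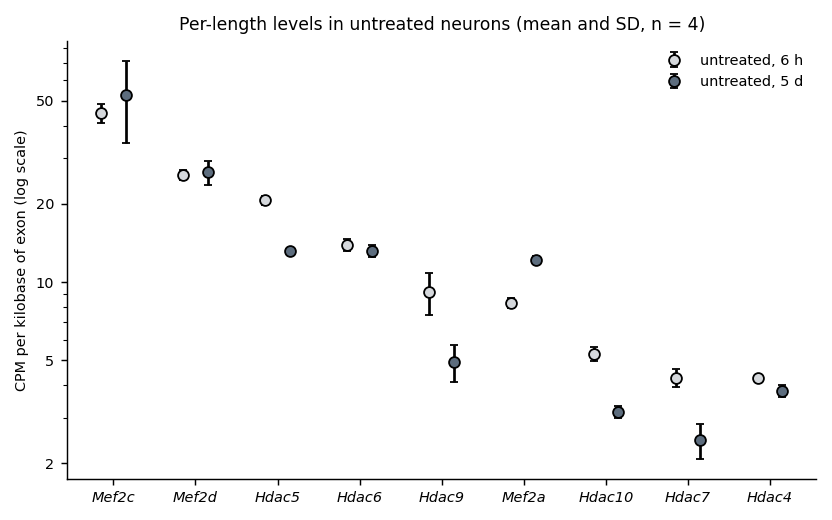
Levels of the 9 expressed genes in untreated neurons, in CPM per kilobase of exon on a log axis, for 6 h and 5 d. Points are means of 4 libraries and bars mark the SD. Mef2c and Mef2d lie highest at both times, and Hdac5 and Mef2a change their distance to Hdac6 between the times.

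In untreated neurons, Hdac5, Hdac7, and Hdac10 were lower and Mef2a was higher at 5 d than at 6 h. Thus 3 of the 8 genes tested without Hdac9 fell and 1 rose, while 14.3% of 20425 genes fell and 19.1% rose in the same comparison. The median log2 fold change over all genes was 0.04. After Mut.oligo, 2 fell and 1 rose, while 15.4% of all genes fell and 18.7% rose. With miR-124-5p the counts were again 3 lower and 1 higher, where 14.7% of all genes fell and 19.5% rose. The same counts were found with miR-92a-1-5p, where 15.7% of all genes fell and 18.3% rose. The 4 comparisons use separate libraries of both times, but they share the batches. Below, the 4 untreated libraries of each time are also described as overlapping or not. The share of all genes without overlap between them was not counted, so this is a description only.

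Among the class IIa genes, Hdac5, a brain-expressed corepressor that leaves the nucleus upon neuronal activity (chr11:102194432-102230166 in GRCm38, minus strand), had 187, 172, 187, and 180 CPM in the untreated libraries of 6 h and 115, 117, 113, and 118 CPM in those of 5 d. All 4 libraries of 5 d were below all of 6 h. The log2 fold change was -0.65 (SE 0.082, adjusted p = 8.54e-08). With Mut.oligo it was -0.47 (adjusted p = 1.52e-05), short of the fold threshold, with miR-124-5p it was -0.62 (adjusted p = 1.78e-07), and with miR-92a-1-5p it was -0.51 (adjusted p = 3.96e-06). The last value stood close to that threshold as well and was -0.47, -0.45, -0.47, and -0.45 without replicate 1, 2, or 3 of 6 h or replicate 4 of 5 d.

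The promoter of Hdac5, chr11:102230123-102230422 in GRCm38 on the minus strand (250 bases before to 50 after the RefSeq start site), is printed because, of all member promoters, it and that of Mef2a hold a match to the MEF2 site. The match is in capitals and starts at position -20 from the start site.
Hdac5 promoter: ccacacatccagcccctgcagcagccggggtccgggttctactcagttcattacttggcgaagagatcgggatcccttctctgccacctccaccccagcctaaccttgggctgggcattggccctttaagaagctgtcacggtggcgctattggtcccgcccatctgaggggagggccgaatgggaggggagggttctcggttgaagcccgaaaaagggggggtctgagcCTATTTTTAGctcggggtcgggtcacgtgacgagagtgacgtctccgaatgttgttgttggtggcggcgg
The MEF2 consensus was sought on both strands and was present in 3.19% of 32851 promoters of the same length. The cyclic AMP response element TGACGTCA, also sought on both strands, was present in 1.79% of all promoters and in 0 of the members'. No Hdac10 promoter was in the table. A match is a description of letters and does not show binding.

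Hdac7, a class IIa gene best known from endothelial cells and thymocytes, had 32.05, 29.2, 26.4, and 28.1 CPM in untreated neurons at 6 h and 14.2, 14.6, 19.3, and 18.4 CPM at 5 d. The groups did not overlap, and the log2 fold change was -0.80 (SE 0.12, adjusted p = 9.31e-07). It was -1.08 with Mut.oligo, -0.94 with miR-124-5p, and -1.03 with miR-92a-1-5p (adjusted p = 3.97e-09, 5.11e-08, and 8.52e-09). The 6 endothelial markers summed to 2.63 to 10.3 CPM at 6 h and 3.41 to 11.1 CPM at 5 d. Of these, Kdr was highest with a median of 2.89 CPM at 6 h and 2.93 CPM at 5 d, Pecam1, Flt1, and Cdh5 also had counts in every library, Tek was at 0 in 1 library, and Cldn5 was at 0 in 10. Their part in the Hdac7 level was not tested.

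Hdac4, whose loss from neurons impairs synaptic function, did not pass the threshold at any condition. Its untreated libraries had 69.4, 66.8, 65.8, and 68.0 CPM at 6 h and 59.6, 64.6, 59.6, and 56.9 CPM at 5 d. These did not overlap, which is a description without a share over all genes. The log2 fold change was -0.17 (adjusted p = 0.0619) in untreated neurons and lay between -0.13 and 0.02 after the oligoribonucleotides. Of its exonic bases, 22.4% lie opposite to exons of the non-coding gene Gm26720, and the reads were counted by strand.

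Hdac9, which in neurons also gives rise to MITR, a short product without the deacetylase domain, was lower at 5 d in its means. Its untreated libraries had 145, 154, 98.7, and 139 CPM at 6 h and 66.8, 89.0, 62.7, and 70.2 CPM at 5 d, which did not overlap. The log2 fold changes of 5 d to 6 h were -0.89 without an oligoribonucleotide, -0.45 with Mut.oligo, -0.74 with miR-124-5p, and -0.34 with miR-92a-1-5p (SE 0.19 each), and they carry no test. The counts do not separate MITR from the full-length transcript.

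Of the class IIb genes, Hdac10, the polyamine deacetylase (chr15:89123307-89128700 in GRCm38, minus strand), had 19.4, 17.5, 17.9, and 16.9 CPM at 6 h and 10.2, 11.3, 10.2, and 11.1 CPM at 5 d in untreated neurons. The log2 fold change was -0.75 (SE 0.094, adjusted p = 9.68e-08) without overlap. Exposed neurons had -0.85 with Mut.oligo, and -0.79 with either miRNA (adjusted p = 8.93e-09, 3.64e-08 for miR-124-5p, and 3.16e-08 for the other). Hdac6, the tubulin deacetylase (chrX:7930120-7947889, minus strand), stayed short of both thresholds. Its untreated libraries had 80.5, 81.0, 86.4, and 76.0 CPM at 6 h and 75.4, 81.6, 71.5, and 78.1 CPM at 5 d and overlapped. The log2 fold changes were between -0.09 and 0.09 over the 4 conditions (SE for untreated 0.049, adjusted p = 0.121 to 0.341).

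Of the MEF2 factors, Mef2a, which takes part in synapse formation of postmitotic neurons (chr7:67231163-67372858 in GRCm38, minus strand), rose. The untreated libraries had 118, 116, 126, and 128 CPM at 6 h and 179, 185, 170, and 180 CPM at 5 d. The log2 fold change was 0.54 (SE 0.078, adjusted p = 8.51e-07), with no overlap of the groups. Exposed neurons had 0.62 with Mut.oligo, 0.59 with miR-124-5p, and 0.61 with miR-92a-1-5p (adjusted p = 9.52e-08, 2.35e-07, and 9.97e-08). Its promoter, chr7:67372809-67373108 on the minus strand, holds the other match to the MEF2 site, in capitals and starting at position -2.
Mef2a promoter: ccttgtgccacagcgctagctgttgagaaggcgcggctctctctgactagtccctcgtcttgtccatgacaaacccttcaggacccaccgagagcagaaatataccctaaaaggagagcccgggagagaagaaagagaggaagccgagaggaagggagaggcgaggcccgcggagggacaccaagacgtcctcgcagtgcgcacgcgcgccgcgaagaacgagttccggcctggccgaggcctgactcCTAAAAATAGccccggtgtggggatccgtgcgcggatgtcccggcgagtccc

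Mef2d, which has survival functions in neurons, had 160, 146, 155, and 159 CPM in untreated neurons at 6 h and 149, 180, 142, and 163 CPM at 5 d. The groups overlapped, and the log2 fold changes of the 4 conditions were 0.01 to 0.16 (adjusted p = 0.107 to 0.932). Mef2c had 704, 681, 643, and 789 CPM at 6 h and 800, 1187, 475, and 859 CPM at 5 d, so that the libraries of 5 d spanned those of 6 h. Its log2 fold changes were 0.24 in untreated neurons, 0.33 with Mut.oligo, 0.24 with miR-124-5p, and 0.28 with miR-92a-1-5p (SE 0.18 for untreated, adjusted p = 0.123 to 0.277). With this spread at 5 d, changes of such a size could not be told from 0.

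**Figure D2:**
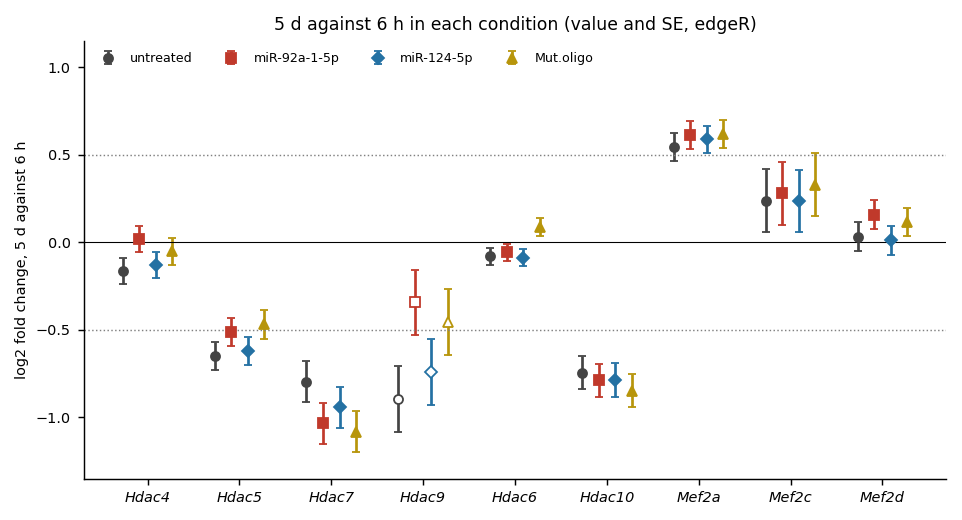
Log2 fold change of 5 d against 6 h for the 9 expressed genes in each of the 4 conditions, with bars of 1 SE and lines at the fold threshold of 0.5 in either direction. Hdac7 and Hdac10 lie below and Mef2a above the lines in each condition, and the open symbols of Hdac9 are a description without a test.

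Over all conditions, the 16 libraries of 5 d lay below the 16 of 6 h for Hdac5 (104 to 143 CPM against 143 to 204), Hdac7 (13.4 to 20.1 CPM against 26.4 to 36.2), and Hdac10 (9.26 to 14.5 CPM against 16.9 to 20.2). The same held for 12.3% of all genes. Mef2a lay above in all (135 to 200 CPM against 112 to 129), as did 12.6% of all genes. For the other 5 expressed genes the ranges overlapped. Hdac9 ranged from 66.8 to 155 CPM with a median of 104 at 6 h and from 49.7 to 89.0 CPM with a median of 68.3 at 5 d.

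**Figure D3:**
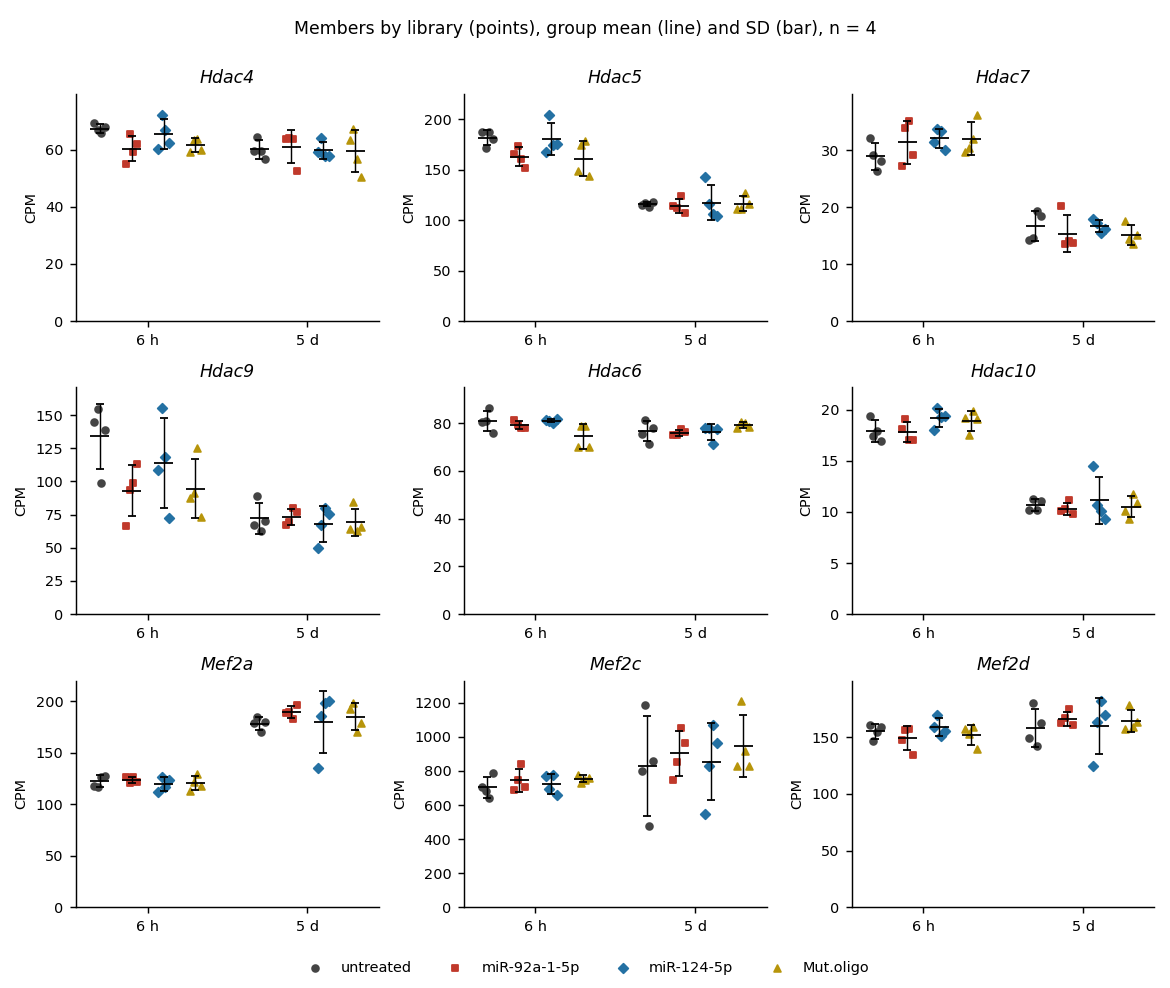
CPM of the 9 expressed genes in each of the 32 libraries, by condition and time, one panel per gene with its own axis from 0. Points are libraries, horizontal lines the group mean, and bars the SD. For Hdac5, Hdac7, and Hdac10 every library of 5 d lies below those of 6 h and for Mef2a above, while Hdac9 at 6 h and Mef2c at 5 d are the most scattered.

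Markers of other cells also differed between the times. The 6 astrocyte markers summed to 188 to 514 CPM at 6 h and 913 to 1786 CPM at 5 d, and the 5 markers of dividing cells to 116 to 325 CPM and 26.1 to 76.7 CPM. The 6 transcription factors of cortical layers summed to 993 to 1214 CPM at 6 h and 509 to 721 CPM at 5 d. Medians were 217 and 140 CPM for 7 markers of the oligodendrocyte lineage, 875 and 714 CPM for 6 interneuron markers, 11.7 and 16.4 CPM for 8 microglial markers, and 15.1 and 11.9 CPM for 5 mural markers. Members of a list did not all move alike. Of the interneuron markers, Gad1 and Gad2 had a higher median at 5 d, and Lhx6, Dlx1, Dlx2, and Sst a lower one. Of the mural markers, Acta2 and Rgs5 had a lower median, and Tagln, Pdgfrb, and Myh11 a higher one. The part of these cell markers in the differences between 5 d and 6 h was not tested. In bulk libraries fewer cells of a type and less RNA per cell cannot be told apart.

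Genes acting on or with the class II deacetylases and MEF2 factors were read in the same comparison of untreated neurons. The counts below stand beside the 19.1% of all genes that rose and the 14.3% that fell, and with lists this short none is read as particular to its list. Of 19 kinases that phosphorylate class IIa deacetylases or act upstream, 4 rose and 1 fell. Camk2a and Camk2d, subunits of the calcium/calmodulin-dependent kinase II, rose by a log2 fold change of 1.64 and 1.51 (adjusted p = 3.43e-12 and 2.53e-12). Camk2a had 95.9 CPM at 6 h and 299 CPM at 5 d in the mean. The nuclear kinase Camk4 rose by 1.28 and Camk1d by 0.59, whereas the salt-inducible kinase Sik1 fell by 0.81 on the log2 scale (adjusted p = 3.05e-07). The median of this list was 0.06. With each oligoribonucleotide 4 rose as well, and 3 fell with Mut.oligo and 2 with either miRNA.

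None of the 7 14-3-3 genes passed in untreated neurons by edgeR, and their log2 fold changes were -0.18 to 0.49. In edgeR's test 2 of them had an unadjusted p under 0.05, as had 12068 of 20425 genes. Of 10 genes of the phosphatases calcineurin and PP2A and their regulators, which act against phosphorylation of class IIa deacetylases, 2 rose: the calcineurin subunit Ppp3ca (0.55, adjusted p = 5.27e-06) and the calcineurin regulator Rcan3 (0.62, adjusted p = 1.73e-06). Of 6 genes of the NCoR/SMRT complex, through which class IIa deacetylases contact HDAC3, the subunit Gps2 fell (-0.55, adjusted p = 1.54e-05).

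Of the 5 other zinc-dependent deacetylases, Hdac11, the class IV enzyme, rose and the class I enzymes Hdac1 and Hdac2 fell. Hdac11 had 26.2 CPM at 6 h and 63.2 CPM at 5 d (log2 fold change 1.27, adjusted p = 2.71e-09). Hdac2 had 282 and 184 CPM (-0.62, adjusted p = 3.47e-08), and Hdac1 changed by -0.60 (adjusted p = 6.86e-08). The same 1 higher and 2 lower genes were counted in each of the other conditions.

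Of 12 genes that are known MEF2 targets in neurons or muscle, 4 rose and 3 fell (median log2 fold change 0.11), where 19.1% of all genes rose and 14.3% fell. The NMDA receptor subunit Grin1 rose from 83.5 to 189 CPM (1.18, adjusted p = 3.68e-13), the protocadherin Pcdh10 rose by 0.86 (adjusted p = 9.18e-10), and the synaptic regulator Arc by 1.79 from a low level of 2.20 CPM to 7.55 CPM (adjusted p = 8.52e-05). Klf6 fell (-0.53, adjusted p = 0.00197). The other 3 that passed were Klf4 with 0.57, Bdnf with -0.72, and Klf2 with -0.55, named here to complete the count.

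Of 8 substrates and partners of HDAC6, 2 fell: Tuba1a, an alpha-tubulin of growing neurons (-1.06, adjusted p = 2.05e-06), and Atat1, the enzyme that acetylates tubulin (-0.78, adjusted p = 9.71e-10). Of 9 genes of polyamine metabolism, 2 rose and 3 fell. Sat1, which acetylates polyamines, rose by 0.84 (adjusted p = 8.32e-06), and the biosynthetic genes Odc1, Srm, and Amd1 fell (-0.58, -0.57, and -0.55).

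After 6 h of exposure, none of the 8 genes tested without Hdac9 passed in any comparison of an oligoribonucleotide with untreated neurons, nor between oligoribonucleotides, by edgeR or by DESeq2. In each of these comparisons 0.0% of 18755 genes passed by edgeR, while DESeq2 called 10 genes, none of them a member, for Mut.oligo against untreated. At an unadjusted p under 0.05, Mut.oligo differed from untreated in 1 of the 8 genes, Hdac6, miR-124-5p in 0, and miR-92a-1-5p in 2, Hdac4 and Hdac5. Over all genes these numbers were 1780, 852, and 891. Between oligoribonucleotides, Hdac6 had such a p for miR-124-5p against Mut.oligo, as had 671 of the 18755 genes. Hdac4 and Hdac5 had one for miR-92a-1-5p against miR-124-5p, as had 413 of all genes.

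Hdac4 had 54.9, 65.4, 59.3, and 62.0 CPM after miR-92a-1-5p and 59.3, 63.5, 64.0, and 60.1 CPM after Mut.oligo, against 65.8 to 69.4 CPM in untreated neurons. Both groups lay entirely below untreated, as did 1.81% of all genes for miR-92a-1-5p and 2.8% for Mut.oligo. After miR-124-5p it had 60.4, 72.3, 67.0, and 62.5 CPM and overlapped. No member lay entirely below untreated after miR-124-5p, where 1.87% of all genes did. The log2 fold change of Hdac4 was -0.16 (SE 0.059, unadjusted p = 0.0163, adjusted p = 0.999) after miR-92a-1-5p and -0.11 (SE 0.060, adjusted p = 0.609) after Mut.oligo in edgeR's test.

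Hdac5 changed by -0.16 after miR-92a-1-5p (SE 0.071, unadjusted p = 0.0434, adjusted p = 0.999 by edgeR) and by -0.15 after Mut.oligo, and its value after miR-124-5p was 0.00. Hdac6 was at -0.10 after Mut.oligo (unadjusted p = 0.0429, adjusted p = 0.506 by edgeR). Hdac7 had log2 fold changes of 0.17, 0.16, and 0.12, and Mef2c of 0.12, 0.05, and 0.08, in the order Mut.oligo, miR-124-5p, and finally miR-92a-1-5p. These did not pass the test.

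Hdac9 at 6 h, which the choice of the genes used, had 145, 154, 98.7, and 139 CPM in untreated neurons and 66.8, 93.5, 99.1, and 113 CPM after miR-92a-1-5p. It had 109, 155, 119, and 72.8 CPM after miR-124-5p and 87.8, 91.6, 126, and 73.5 CPM after Mut.oligo. Each of the exposed groups overlapped with untreated, those of miR-92a-1-5p and Mut.oligo through untreated replicate 3 alone. The log2 fold changes were -0.48 with Mut.oligo, -0.23 with miR-124-5p, and -0.52 with miR-92a-1-5p (SE 0.21 each). Leaving out 1 library at a time gave -0.65 to -0.39 for miR-92a-1-5p and -0.65 to -0.38 for Mut.oligo. For miR-124-5p it gave -0.42 without its replicate 2 and -0.06 without its replicate 4. Between oligoribonucleotides, miR-92a-1-5p differed from Mut.oligo by -0.04 over all libraries. In the 2 batches that held both, the log2 ratios of miR-92a-1-5p to Mut.oligo went in opposite directions, -0.43 and 0.17. The mean after the control sequence was thus also below untreated, while the 2 oligoribonucleotides were not alike within batches.

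The libraries of 6 h that shared an experiment batch with an untreated library were then compared one to one. Hdac9 was lower than in the untreated library of its batch in all 4 pairs of miR-92a-1-5p, by log2 ratios of -0.56, -0.45, -0.63, and -0.49. The ratios were -0.44 and -0.35 for the 2 pairs of miR-124-5p, and -0.20 and -0.66 for the 2 pairs of Mut.oligo. All 8 pairs had less Hdac9 in the exposed library. Hdac9 was chosen by its lower values in these same libraries, so this direction is a description only. The share of all genes lower in all 8 pairs was not counted. The untreated libraries recur in several pairs, so these are not independent of each other.

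Of the other genes, Hdac4 (log2 ratios -0.26 to -0.08), Hdac5 (-0.18 to -0.11), and Mef2d (-0.12 to -0.01) were lower after miR-92a-1-5p in all 4 shared batches. These are 3 of 8 genes, and the same was found for 12.1% of all genes. Mef2c was higher in all 4 (0.05 to 0.10), 1 of 8 genes, which was found for 12.3% of all genes. In a fit that also held the batch, miR-92a-1-5p had log2 fold changes of -0.16 for Hdac5 (SE 0.037, adjusted p = 0.0534 by edgeR) and -0.16 for Hdac4 (SE 0.040, adjusted p = 0.0685). The value of Hdac9 in this fit was -0.53. Mut.oligo replicate 4 and miR-124-5p replicate 3 were alone in their batches and drop out of that fit. Hdac4 and Hdac5 stayed short of the fold threshold in it.

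**Figure D4:**
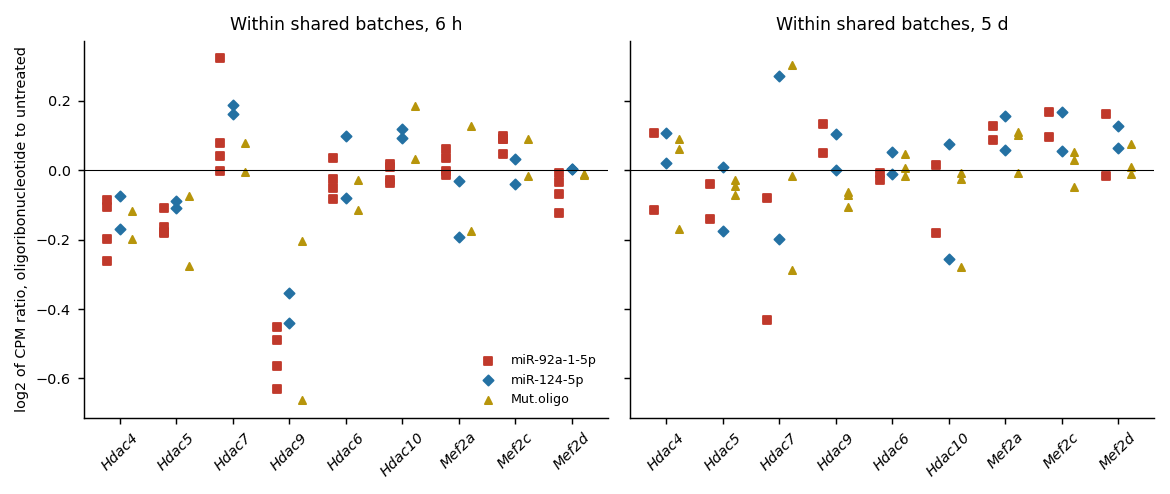
Log2 ratio of an exposed library to the untreated library of the same experiment batch for the 9 expressed genes, by oligoribonucleotide and time; each point is 1 pair and the line marks 0. Hdac9 lies below 0 in all 8 pairs of 6 h and near 0 at 5 d, and Hdac4 and Hdac5 lie slightly below 0 in all 8 pairs of 6 h. Hdac9 was chosen by its lower values at 6 h. The untreated libraries recur in these pairs, and the share of all genes lower in all 8 was not counted. For the 4 pairs of miR-92a-1-5p it was 12.1%.

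After 5 d of exposure, none of 9 genes passed in any comparison by edgeR or DESeq2, and 0 had an unadjusted p under 0.05 in the comparisons with untreated neurons or between oligoribonucleotides. Of 19333 genes tested, edgeR called 0.00517% for miR-92a-1-5p against untreated and 0.0% in the other comparisons, while DESeq2 called 29 genes for miR-92a-1-5p and 3 for Mut.oligo against untreated, none of them a member. Hdac9 had 64.0, 84.7, 62.6, and 65.3 CPM after Mut.oligo. It had 49.7, 66.9, 80.2, and 75.5 CPM with miR-124-5p and 67.4, 69.1, 80.1, and 77.1 CPM with miR-92a-1-5p. All overlapped with the 62.7 to 89.0 CPM of untreated neurons. Its log2 fold changes were -0.06, -0.08, and 0.02 in this order (SE 0.14 each, adjusted p = 0.999 for Mut.oligo by edgeR). In shared batches, the log2 ratios of Hdac9 were -0.10 to -0.06 with Mut.oligo, 0.00 and 0.10 with miR-124-5p, and 0.05 and 0.13 with miR-92a-1-5p.

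The change from 6 h to 5 d in the effect of an oligoribonucleotide was tested for 8 genes with all 32 libraries. None passed for any of the 3, and 0.0% of 20425 genes passed in each. At an unadjusted p under 0.05 there was 1 gene, Hdac6 for Mut.oligo (difference of log2 fold changes 0.17, unadjusted p = 0.0225, adjusted p = 0.857 by edgeR). Over all genes, 1133 had such a p for Mut.oligo. For Hdac9 the differences were 0.44 with Mut.oligo, 0.15 with miR-124-5p, and 0.55 with miR-92a-1-5p, without a test. None of the genes of the pathway lists passed in a comparison of oligoribonucleotides or in a change of their effect.

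The libraries of Mef2c at 5 d differed more between experiment batches than within them. Its libraries had 548 and 747 CPM in the batch that held miR-124-5p replicate 1 and miR-92a-1-5p replicate 1 without an untreated library, and 1187 and 1210 CPM in the batch with untreated and Mut.oligo replicate 2. In the other batches with several libraries they had 800 to 855 CPM, 831 to 964 CPM, and 916 to 1070 CPM. Untreated replicate 3, alone in its batch, had 475 CPM. The SD of log2 CPM over the 16 libraries was 0.358, against 0.131 within batches. At 6 h these values were 0.104 and 0.0506.

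The libraries at the ends of this range also differed in other genes. Untreated replicate 2 at 5 d had 6124 CPM of summed neuronal markers, 962 CPM of astrocyte markers, and 721 CPM of layer transcription factors, and untreated replicate 3 had 4497, 1649, and 509 CPM. The part of these in the Mef2c level was not tested. The comparison of Mef2c after miR-92a-1-5p with untreated at 5 d was 0.12 (SE 0.23), and 0.34 without untreated replicate 2 and -0.07 without untreated replicate 3.

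**Figure D5:**
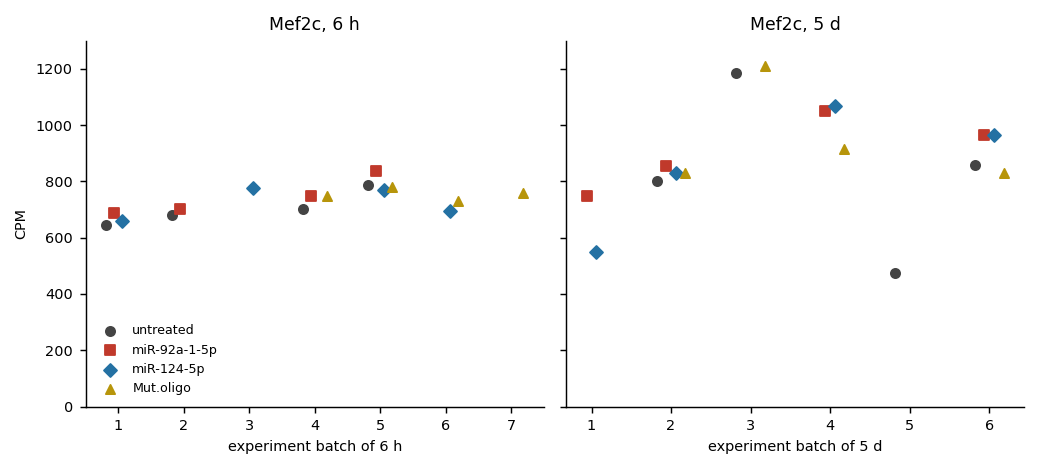
CPM of Mef2c in each library, arranged by the experiment batch of the label, for 6 h and 5 d, coloured by condition. At 5 d the batches range from 475 CPM in a batch of 1 library to 1187 and 1210 CPM in the batch of untreated and Mut.oligo replicate 2, and at 6 h all libraries lie between 643 and 839 CPM.

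The genes most like a member were sought among 17850 genes by Pearson's r of log2 CPM over the 32 libraries after the mean of each time had been subtracted. The libraries share batches, so these values describe the set and carry no test. For Hdac9 they were Kcnj3 (r = 0.925), Trp53inp2 (0.867), Pmaip1 (0.848), Slitrk4 (0.844), and Bdnf (0.844). Within each time, r was lower at 5 d than at 6 h for Bdnf (0.489 against 0.923) and Pmaip1 (0.676 against 0.922). For the others it was 0.806 to 0.949 at either time. The genes listed next for Mef2c had r of 0.539 to 0.857 at 6 h and 0.964 to 0.987 at 5 d. For Mef2c they were Gas7 (0.965), Met (0.951), Adarb1 (0.947), Ccbe1 (0.943), and Zbtb18 (0.937), and for Hdac7 they were Phykpl (0.815), Myo9b (0.789), Gm42672 (0.762), Arhgef1 (0.756), and Trmt13 (0.742). Among the members, Mef2c went with Mef2d (r = 0.74) and Mef2a with Mef2d (0.69), and Hdac5 with Hdac10 (0.62). Hdac10 and Mef2a went in opposite directions (-0.73). A single library, miR-124-5p replicate 1 at 5 d, weighs on these values. Of the 5 d libraries it had the highest Hdac10 (14.5 CPM) and Hdac5 (143 CPM) and the lowest Mef2a (135 CPM) and Mef2d (125 CPM). The values of r without it were not computed.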

How the data were processed

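Poly(A) RNA of cortical neuron cultures was sequenced with a strand-specific kit. The authors mapped the reads to GRCm38 with STAR, counted reads on exons by strand with featureCounts of Subread, and deposited raw counts of 49671 genes in 32 libraries, of which 49326 had a symbol and coordinates in GENCODE M21 and 345 did not. The submitters' processing notes give no versions of these tools. Groups were taken from the deposited labels. The chi-square per gene of 48 replicate pairs was 6.60 to 101, where sampling noise alone gives values near 1, so that no library was counted as a duplicate.

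Counts were analysed in R 4.3.3 with edgeR 4.0.16 (TMM, quasi-likelihood test, no covariate). Each time point was fitted with its 16 libraries for comparisons of oligoribonucleotides, and all 32 libraries were fitted for comparisons of times and for changes of effects between times. The low-count filter was 5 counts in 3 libraries. Correlations used log2 CPM with a prior count of 2. Intervals of counting error were not needed, since each value rests on replicates, and the spread between libraries sets the precision. The methods were tested on simulated data. Alternatives were a block for the experiment batch or for the replicate number, DESeq2 1.42.0, other size factors and filters, no minimum fold, 2-group fits, and leaving out single libraries. The members, the pathway lists, and the marker lists were chosen with earlier results of these data known. Named genes are the 10 members, up to 4 passing genes per pathway list by the smallest p, and the 5 genes most alike for Hdac9, Mef2c, and Hdac7. Promoters and the miRNA were taken from RefSeq tables of GRCm38.p6. Sequences of miR-124-5p and Mut.oligo, and of proteins, were not used here.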

Additional observations from a re-analysis of the deposited data

Results flagged for a closer look

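In 4 of 72 sets of 4 libraries, 1 library stood apart from the other 3 by Dixon's criterion, and about 1 in 20 would do so by chance. At 5 d, Hdac4 was 52.6 CPM in miR-92a-1-5p replicate 4, against 63.7 to 64.3 CPM in the other replicates. Hdac7 was 20.1 CPM in miR-92a-1-5p replicate 1, against 13.5 to 14.03 CPM. Hdac9 was 84.7 CPM in Mut.oligo replicate 2, against 62.6 to 65.3 CPM, and Hdac6 was 71.3 CPM in miR-124-5p replicate 3, against 77.5 to 78.2 CPM.

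Each of 9 genes was looked at with 3 oligoribonucleotides. For 5 pairs of a gene and an oligoribonucleotide, the log2 ratios to untreated libraries of the same batch had opposite signs at 6 h and at 5 d in all pairs. The share of all genes was not counted, and each case rests on 2 to 4 library pairs at a time. The difference given for each is that of the effects at 5 d and 6 h in the fit over all 32 libraries without the batch, so it is not the difference of the ratios listed, which come from the libraries in shared batches alone. Hdac9 after miR-92a-1-5p went from -0.63 to -0.45 at 6 h to 0.05 and 0.13 at 5 d, and the fitted difference was 0.55. Hdac9 after miR-124-5p had -0.44 and -0.35 at 6 h and 0.0012 and 0.10 at 5 d, with a fitted difference of 0.15. Neither difference of Hdac9 was tested. Its lower values at 6 h entered the choice of the gene, so its 2 cases are a description only. Hdac4 after miR-124-5p had -0.17 and -0.07 at 6 h and 0.02 and 0.11 at 5 d (fitted difference 0.034). Mef2a after miR-124-5p had -0.19 and -0.03 at 6 h and 0.06 and 0.16 at 5 d (fitted difference 0.043). Hdac10 after Mut.oligo had 0.03 and 0.18 at 6 h and -0.28 to -0.01 at 5 d (fitted difference -0.10). For Hdac4, Mef2a, and Hdac10 the fitted difference did not pass edgeR's test.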

How the results depend on the processing

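The number of members that passed was recomputed under every alternative and comparison, which gave 339 values, and all 339 were within 1.5 times of the reported number. Of 3051 fold changes of single members, 0 that had passed changed sign. Of those that had not passed, 226 changed sign, and 63 values moved by at least the SE of the fold change in the main fit without a change of call. Calls of Hdac9 were left out wherever libraries of 6 h enter, and there its fold changes were compared by size alone. Among the other calls, those that changed were of Hdac5 between 5 d and 6 h. After miR-92a-1-5p it no longer passed without replicate 1, 2, or 3 of 6 h or replicate 4 of 5 d (-0.47, -0.45, -0.47, and -0.45). After Mut.oligo it passed with no minimum fold (-0.47), without replicate 4 of 6 h (-0.52), and without replicate 3 of 5 d (-0.51). Leaving out single libraries gave 3 to 4 passing members for miR-92a-1-5p and for Mut.oligo, and 4 for untreated and miR-124-5p. The replicate numbers do not pair the libraries throughout. Same-numbered libraries correlated with r from -0.22 to 0.25 at 6 h (5 of 24 pairs over 0.1) and from -0.21 to 0.41 at 5 d (13 of 24, against 16 of 72 pairs with other numbers). Libraries of the same experiment batch were more alike, with a median r of 0.22 at 6 h (13 of 14 pairs over 0.1) and 0.18 at 5 d (14 of 17). Between batches the medians were -0.04 and -0.06. The main fits did not hold the batch. At 5 d the numbers follow the experiment batch in part: all libraries numbered 4 share a batch, and miR-92a-1-5p shares one with miR-124-5p for every number. For that pair of groups, 0 genes passed with or without the replicate block. With the experiment batch, 2 genes passed by edgeR and 10 by DESeq2. With a replicate block, the number of passing members for 5 d against 6 h in untreated neurons was again 4, and 0 for each oligoribonucleotide against untreated.

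Over all genes, the batch covariate raised the passing genes for miR-92a-1-5p at 6 h from 0 to 39 (26 with DESeq2), and at 5 d from 1 to 68 (118 with DESeq2, 29 with DESeq2 and no covariate). With DESeq2 alone, with the batch in edgeR, and with both, Mut.oligo against untreated went from 0 to 10, 4, and 8 at 6 h and from 0 to 3, 9, and 17 at 5 d. With the batch, miR-124-5p at 5 d went from 0 to 5 (17 with DESeq2), and the change of the miR-92a-1-5p effect between times from 0 to 28 (95 with DESeq2). Likewise, miR-92a-1-5p against Mut.oligo at 5 d went from 0 to 2 (13 with DESeq2). Of the members other than Hdac9, 0 were among these genes. For 5 d against 6 h in untreated neurons, 6835 genes passed, 11167 with no minimum fold and 4544 with at least 10 counts in every library. Libraries alone in their batch, untreated replicate 3 at 5 d among them, drop out of fits with the batch. The time points share no batch, so no such fit could be made for 5 d against 6 h.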
